A study of Mus musculus with 12 samples.

Results

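The antioxidant genes described here were 48 genes of glutathione, thioredoxin and metallothionein metabolism, taken by gene symbol from the 61210 genes of an RNA-seq count table of interscapular brown adipose tissue (iBAT). They fall into 8 families, namely 17 glutathione transferases, 5 glutathione peroxidases, 4 genes of glutathione synthesis and recycling, 7 peroxiredoxins and sulfiredoxin, 5 genes of the thioredoxin system, 4 superoxide dismutases and catalase, 4 genes of the NRF2 pathway and 2 metallothioneins. All 48 were found in the table by their symbol. Of these, 46 passed the filter on low counts and were tested together with 16737 genes in all.

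Total RNA-seq had been done on iBAT of wild-type C57BL/6N mice, which were 20 weeks old and of a sex the labels do not give. The 4 groups of 3 libraries were mice on the control diet (NCD) at room temperature (RT), mice on NCD in the cold, mice on high-fat diet (HFD) at RT and mice on HFD in the cold. All mice had eaten chow up to the age of 8 weeks, HFD was then fed for 12 weeks, and the cold groups spent their last 24 h at 4 °C. Replicates 1 and 2 of each group were labelled batch 1 and replicate 3 batch 2, and the labels do not say that libraries of a group came from separate mice, so p-values measure the spread between these libraries.

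Brown adipocytes burn fatty acids in mitochondria to make heat, and the electron transport chain gives off superoxide as a by-product. Superoxide dismutases turn it into hydrogen peroxide, which catalase, the glutathione peroxidases and the peroxiredoxins remove. Glutathione and thioredoxin supply the electrons for this and are in turn reduced by reductases that use NADPH, glutathione transferases couple glutathione to reactive lipids and foreign compounds, and metallothioneins bind zinc and copper. Many of these genes are targets of the transcription factor NRF2, which the adaptor KEAP1 holds at a low level until it is oxidised.

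Libraries held 15136861 to 46740702 counts, with 15136861 to 21026727 in batch 1 and 34067515 to 46740702 in batch 2. All 10 brown adipocyte markers were detected in every library, and their summed level was 12910 to 15590 scaled counts (CPM, relative to library size) in NCD RT, 29600 to 33190 in NCD cold, 13260 to 16780 in HFD RT and 21250 to 26280 in HFD cold. The sum of 12 skeletal muscle markers ranged from 681 CPM in HFD cold replicate 1 to 18870 CPM in HFD RT replicate 3. It was 6014 CPM or more in 4 libraries and 3539 CPM or less in the others, the 4 being NCD RT replicate 2, NCD cold replicate 2, HFD RT replicate 3 and HFD cold replicate 3. In bulk tissue, fewer cells of a type and less RNA per cell cannot be told apart. CPM values here were scaled with edgeR's TMM factors, and where levels are compared between genes they are divided by the length of the longest coding transcript (CPM per kb). The factors were 0.896 to 0.9517 in the NCD libraries and 1.0268 to 1.1534 in the HFD libraries. Small differences between the diets, and groups that just miss overlapping, therefore depend on this scaling.

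The 46 tested genes spanned a wide range of levels. In NCD RT the highest level per length was that of Gpx4, a selenoenzyme that reduces lipid hydroperoxides, at 1442 CPM per kb. It was followed by Sod1, the cytosolic superoxide dismutase, at 526.5 CPM per kb, the microsomal transferase Mgst1 at 381.5 CPM per kb and Cat, the peroxisomal catalase, at 309.1 CPM per kb. The lowest were Gpx7 at 2.85 and Nqo1, a quinone reductase, at 1.48 CPM per kb. Gsta1 and Gsta2 were not tested, with 0 to 17 counts and 0 to 2 counts per library. A library with 0 counts allows up to 3, by counting error alone, and 92.2% of the 31-base words of Gsta1 and 58.8% of those of Gsta2 also occur in other genes. Replicates agreed closely for most genes, and the median coefficient of variation within groups was 13.8% over the 46 genes, against 17.0% over all genes tested. It was lowest for Cat at 6.34% and highest for Mt2 at 52.5%.

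**Figure D1:**
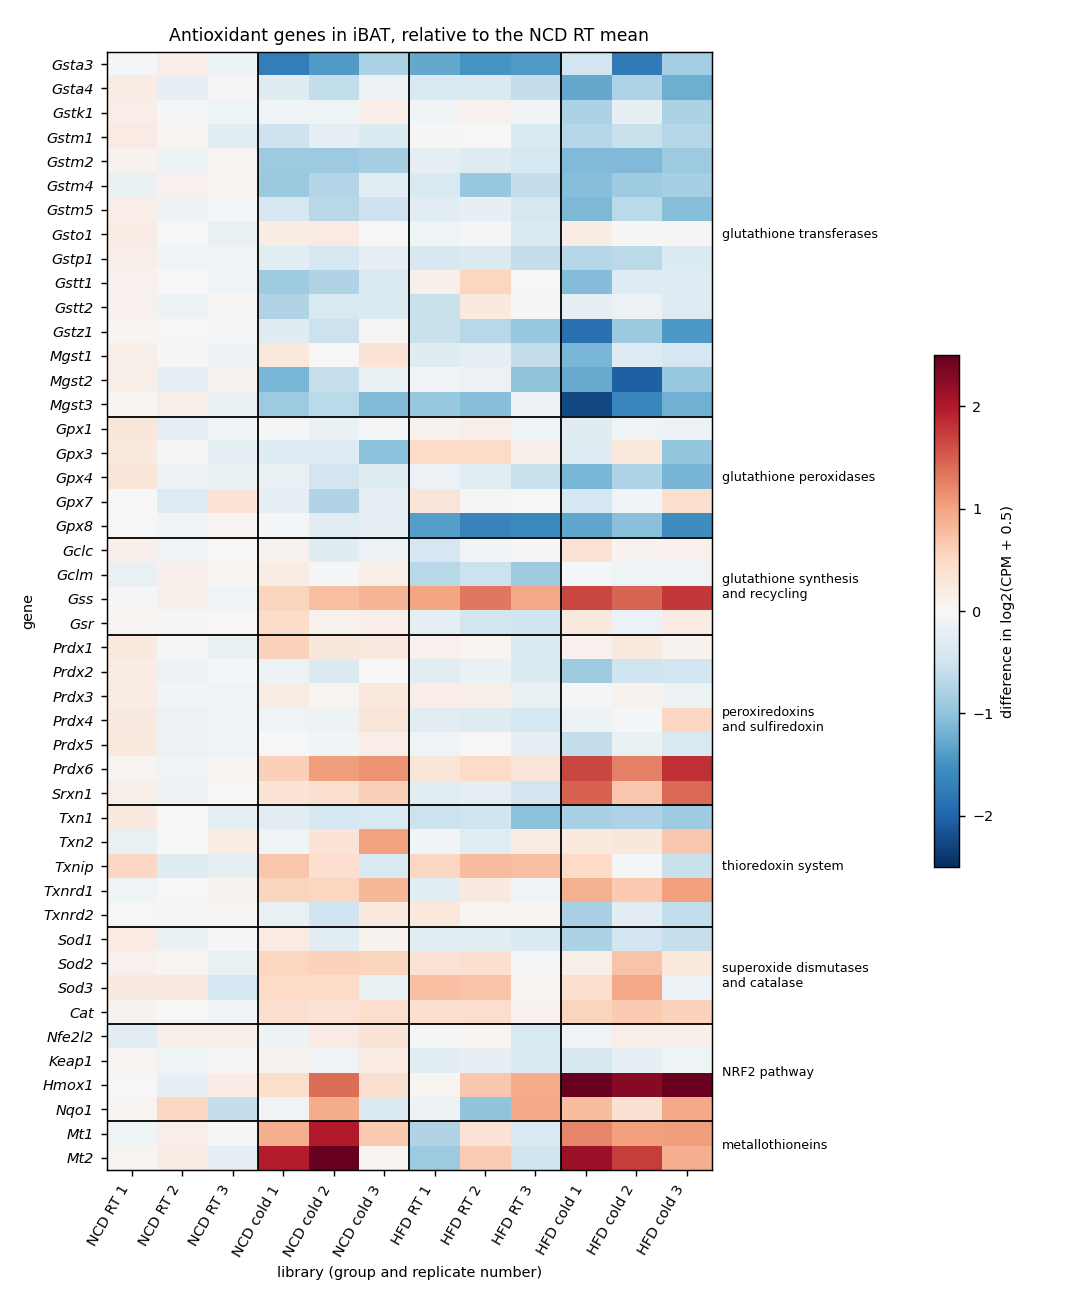
Levels of the 46 tested antioxidant genes in the 12 libraries, each as log2(CPM + 0.5) minus the mean of the 3 NCD RT libraries, with genes in rows by family and libraries in columns by group; colours stop at 2.5 in either direction. Most rows of glutathione transferases are blue in HFD cold, Gss, Prdx6, Srxn1 and Hmox1 are red there, and Gpx8 is blue in both HFD groups.

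A gene was called where its Benjamini-Hochberg adjusted p over all 16737 genes, from edgeR's quasi-likelihood test on the 4 group means, was under 0.05 and its log2 fold change over 0.5 in size. Cold on NCD called 7 of the 46 genes, 4 higher and 3 lower, where 6.27% of all genes were called, 3.72% higher and 2.55% lower. Cold on HFD called 17 of 46, 8 higher and 9 lower, against 9.58% of all genes, 5.39% higher and 4.19% lower. HFD at RT called 4 of 46, 1 higher and 3 lower, against 2.09% of all genes, 0.992% higher and 1.09% lower. HFD in the cold called 10 of 46, 4 higher and 6 lower, against 4.75% of all genes, 2.06% higher and 2.69% lower. In all, 23 of the 46 were called in at least 1 contrast and 23 in none. The 4-group test passed an adjusted p of 0.05 for 26 of 46, against 24.3% of all genes, and its smallest adjusted p was 8.53e-05 for Gpx8. Without the minimum fold the counts of antioxidant genes were 7, 17, 4 and 10 as before, against 7.42%, 11.5%, 2.16% and 5.31% of all genes. Both cold contrasts and both HFD contrasts share groups, so their counts are not independent of each other.

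The groups of a contrast did not overlap for 20 of 46 genes in cold on NCD (27.8% of all genes), 26 in cold on HFD (30.3%), 21 in HFD at RT (25.9%) and 20 in HFD in the cold (25.2%). Ordered by group means, 20 of the 46 genes were lowest in HFD cold (43.5% against 27.9% of all genes tested) and 15 in HFD RT (32.6% against 20.4%). The lowest mean was in NCD RT for 7 (15.2% against 26.5%) and in NCD cold for 4 (8.7% against 25.1%). The highest was in NCD RT for 16 (34.8% against 23.4%) and in NCD cold for 14 (30.4% against 20.8%). It was in HFD RT for 7 (15.2% against 28.4%) and in HFD cold for 9 (19.6% against 27.4%). Median log2 fold changes of the 46 were 0.02, -0.10, -0.13 and -0.19 for the cold on NCD and on HFD and for HFD at RT and in the cold, and those of all genes were -0.01, -0.04, 0.03 and 0.02.

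**Figure D2:**
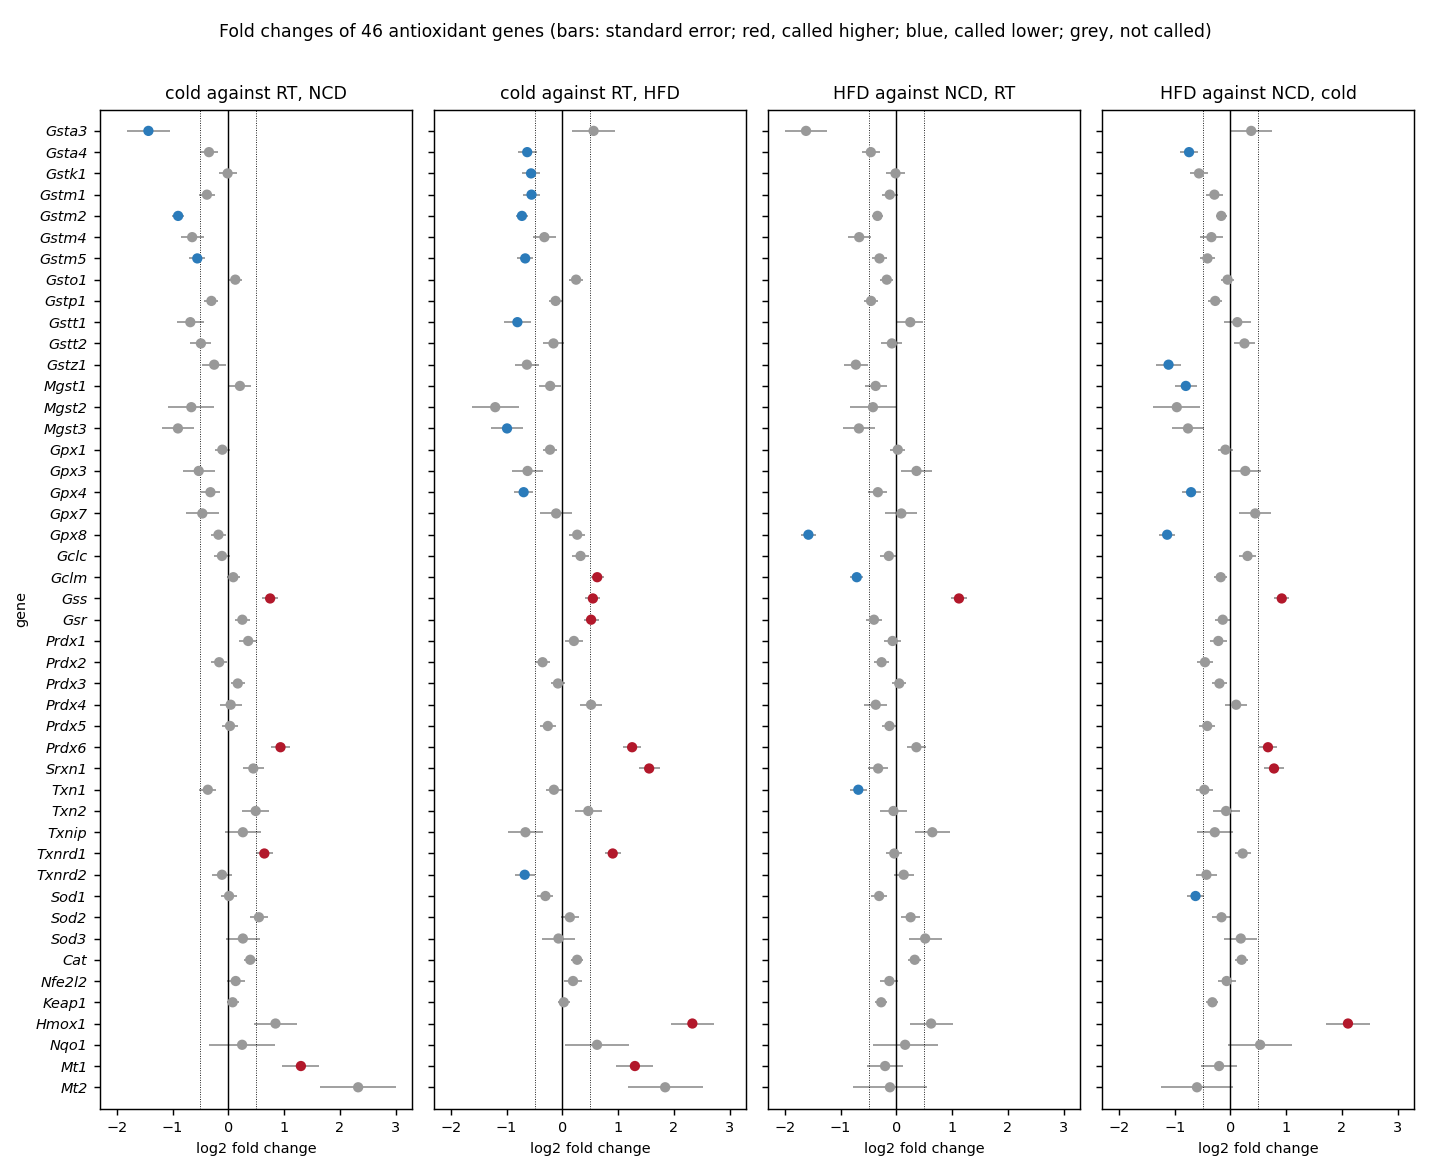
log2 fold changes (points) with standard errors (bars) of the 46 tested antioxidant genes in the 4 contrasts; red points were called higher, blue points lower, and grey points were not called, with dotted lines at a log2 fold change of 0.5 in either direction. Cold on HFD holds the most coloured points, 8 red and 9 blue, and Gss is red in all 4 contrasts.

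Genes of glutathione synthesis and recycling were higher in the cold on HFD: 3 of the 4, Gclm, Gss and Gsr, were called, and the median log2 fold change of the 4 was 0.53. On NCD only Gss was called in the cold. HFD at RT called Gss higher and Gclm lower, and HFD in the cold called Gss alone.

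Gss codes for glutathione synthetase, which adds glycine in the last step of glutathione synthesis. Its level was 13.4, 15.1 and 13.0 CPM in NCD RT, 20.5, 23.7 and 25.4 in NCD cold, 27.8, 35.1 and 27.3 in HFD RT, and 45.2, 38.7 and 47.9 in HFD cold. No pair of groups that a contrast compares overlapped, and Gss was the only one of the 46 genes called in all 4 contrasts. It was 1.68-fold higher in cold on NCD (log2 0.75, SE 0.14, adjusted p = 0.00898) and 1.46-fold higher in cold on HFD (log2 0.55, SE 0.13, adjusted p = 0.0242). With HFD it was 2.18-fold higher at RT (log2 1.12, SE 0.14, adjusted p = 0.0028) and 1.89-fold higher in the cold (log2 0.92, SE 0.14, adjusted p = 0.00431). When each of the 12 libraries was left out in turn, 3 of these calls were kept in all 12 fits. The call in cold on HFD was lost without HFD RT replicate 1 or 3 or HFD cold replicate 1 or 3, where its log2 fold change was 0.48 to 0.56. Gss lies on chromosome 2 (155563181 to 155592810, minus strand, GRCm38) and overlaps Acss2, Gssos1 and Gssos2 on the other strand, with 19.8% of its 31-base words found elsewhere. Acss2 was lower in the same contrasts, with log2 fold changes of -0.99, -1.35, -1.41 and -1.77, and Gssos1 and Gssos2 held at most 25 counts.

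Gclm, the modifier subunit of glutamate-cysteine ligase in the first step of the synthesis, was at 44.5, 55.6 and 52.7 CPM in NCD RT and at 57.4, 48.9 and 56.2 in NCD cold. In HFD RT it was at 31.2, 35.0 and 27.1 CPM and in HFD cold at 49.0, 47.2 and 47.7. The HFD RT libraries thus lay below all 9 others. Gclm was 1.64-fold lower with HFD at RT (log2 -0.71, SE 0.12, adjusted p = 0.0128) and 1.54-fold higher in cold on HFD (log2 0.63, SE 0.12, adjusted p = 0.00775). The second call was kept in 12 of 12 fits that left out a library, and the first in 11, being lost without NCD RT replicate 2 (log2 -0.65, adjusted p = 0.0561). The effect of cold differed between the diets by a log2 of 0.54 (SE 0.17, unadjusted p = 0.00825), which did not pass the adjustment (adjusted p = 0.606).

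Gsr, the NADPH-dependent reductase of oxidised glutathione, was at 37.4, 34.1 and 35.2 CPM in NCD RT, 48.9, 38.2 and 39.9 in NCD cold, 30.2, 25.6 and 25.0 in HFD RT and 42.0, 32.0 and 41.3 in HFD cold. It was 1.43-fold higher in cold on HFD (log2 0.52, SE 0.14, adjusted p = 0.0331), without overlap. On NCD the cold libraries also lay above those at RT, but the difference was not called (log2 0.25, adjusted p = 0.317). The call on HFD was lost without HFD RT replicate 2 or 3 or HFD cold replicate 1 or 3, where the log2 fold change was 0.46 to 0.48, and with a muscle score as a term (log2 0.48, adjusted p = 0.0566). Gclc, the catalytic subunit of glutamate-cysteine ligase, was not called, with log2 fold changes of -0.14 to 0.33.

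**Figure D3:**
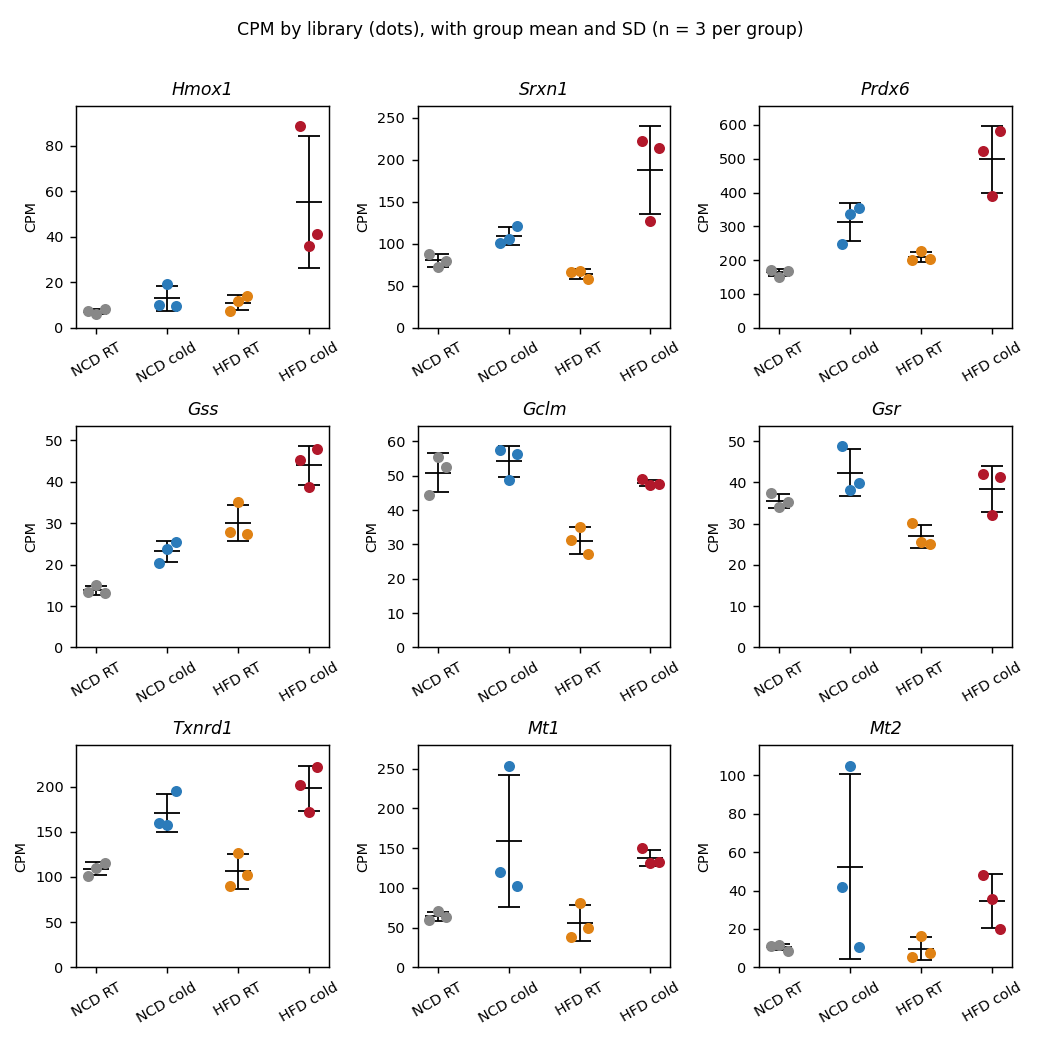
CPM in each library (dots) with the group mean and SD (n = 3) of 9 antioxidant genes in the 4 groups; each vertical axis starts at 0. Hmox1 was at 35.8 to 88.8 CPM in HFD cold and at most at 19.4 CPM elsewhere, Gss was lowest in NCD RT and highest in HFD cold, Gclm was lowest in HFD RT, and the cold groups of Mt1 lay above the RT groups.

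Glutathione transferases had mostly negative fold changes in the cold and with HFD. Of the 15 tested, 13 had negative log2 fold changes in cold on NCD, 13 in cold on HFD, 14 in HFD at RT and 12 in HFD in the cold, with medians of -0.49, -0.56, -0.37 and -0.34. Of all genes, 49%, 46.3%, 54.1% and 51.8% had positive log2 fold changes in these contrasts, which share groups. The calls were 3, 7, 0 and 3 in this order, all lower, where 2.55%, 4.19%, 1.09% and 2.69% of all genes were called lower. With HFD at RT, 0 of 15 were called by edgeR, while 7 had an unadjusted p under 0.05 and DESeq2 called 3 (Gsta3, Gstm4 and Gstz1). The summed level of all 17 genes was 1246 ± 105.2 CPM in NCD RT, 1158 ± 110.3 in NCD cold, 943.6 ± 89.4 in HFD RT and 752 ± 129 in HFD cold (mean ± SD, n = 3). Each of the 3 HFD cold libraries, at 607.8 to 856.7 CPM, lay below every NCD library. So did each of the 3 HFD RT libraries, at 840.9 to 1004 CPM, where the lowest NCD library was at 1047 CPM. The HFD cold and HFD RT libraries overlapped.

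Among the mu class, which lies in a cluster on chromosome 3, Gstm2 was at 34.0, 29.4 and 32.8 CPM in NCD RT and 16.8, 16.8 and 17.9 in NCD cold. In HFD RT it was at 26.9, 25.6 and 23.6 CPM and in HFD cold at 14.6, 14.6 and 16.7. All 6 cold libraries therefore lay below all 6 RT libraries. Gstm2 was 1.87-fold lower in cold on NCD (log2 -0.90, SE 0.10, adjusted p = 0.000838) and 1.65-fold lower in cold on HFD (log2 -0.73, SE 0.10, adjusted p = 0.00188). Both calls were kept in 12 of 12 fits that left out a library. The share of its 31-base words found in other genes, mainly Gstm1, was 17.4%.

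Gstm5 was at 36.2, 29.8 and 31.5 CPM in NCD RT, 23.9, 19.8 and 22.5 in NCD cold, 27.1, 27.9 and 24.1 in HFD RT and 14.5, 20.0 and 15.2 in HFD cold. On each diet the cold libraries lay below those at RT, by 1.47-fold on NCD (log2 -0.56, SE 0.14, adjusted p = 0.0364) and 1.59-fold on HFD (log2 -0.67, SE 0.14, adjusted p = 0.0125). The call on HFD was lost without HFD cold replicate 1 or 3 (log2 -0.55 and -0.60), and that on NCD in 7 of 12 fits, those without any of the 6 NCD libraries or HFD RT replicate 2, over which it was -0.62 to -0.47. Gstm5 overlaps and shares part of its sequence with the antisense gene 4933431E20Rik, which was not called in any contrast (log2 -0.55 to 0.32). Gstm1 was called in cold on HFD only. It stood at 95.1, 86.6 and 67.8 CPM in NCD RT, 57.3, 69.2 and 64.5 in NCD cold, 83.8, 82.5 and 63.4 in HFD RT and 50.2, 56.1 and 50.2 in HFD cold, which is 1.47-fold lower in cold on HFD (log2 -0.55, SE 0.15, adjusted p = 0.0327). Its call was lost without HFD RT replicate 1 or 2, HFD cold replicate 1 or 3 or NCD cold replicate 3 (log2 -0.52 to -0.45), and 30.4% of its 31-base words occur in other genes. Gstm4 had log2 fold changes of -0.65, -0.32, -0.67 and -0.34 in the 4 contrasts and was not called.

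Of the alpha class, Gsta4, which conjugates the lipid peroxidation product 4-hydroxynonenal, was lowest in HFD cold. It was at 79.1, 60.3 and 70.5 CPM in NCD RT, 56.4, 45.3 and 63.2 in NCD cold, 53.5, 53.3 and 46.1 in HFD RT and 28.4, 40.7 and 29.6 in HFD cold. The HFD cold libraries lay below the other 9. Gsta4 was 1.55-fold lower in cold on HFD (log2 -0.63, SE 0.17, adjusted p = 0.0344) and 1.67-fold lower with HFD in the cold (log2 -0.74, SE 0.17, adjusted p = 0.0314). These calls were kept in 6 and 7 of 12 fits that left out a library, with log2 fold changes of -0.81 to -0.51 and -0.93 to -0.62, and both were lost without HFD cold replicate 1 or 3. With the replicate number as a block over all groups the call in cold on HFD was lost (log2 -0.63, adjusted p = 0.0504), and with a block within diet it was kept.

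Gsta3 showed another pattern at a low level. It was at 5.16, 6.10 and 4.90 CPM in NCD RT and below all of these in the 9 other libraries, with 1.26, 1.71 and 2.89 in NCD cold, 1.93, 1.62 and 1.69 in HFD RT and 3.74, 1.23 and 2.75 in HFD cold. It was 2.70-fold lower in cold on NCD (log2 -1.43, SE 0.38, adjusted p = 0.0434), a call kept in 3 of 12 fits, those without HFD cold replicate 1 or 2 or NCD cold replicate 3, and lost with a muscle score as a term (log2 -1.44, adjusted p = 0.0516). With HFD at RT the fitted difference was larger, log2 -1.62, but its adjusted p was 0.055. The difference between the effects of cold on the diets was 1.99 (log2, SE 0.54, unadjusted p = 0.00334, adjusted p = 0.525).

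Gstz1 is the maleylacetoacetate isomerase of tyrosine breakdown. It was at 237, 227 and 222 CPM in NCD RT, 186, 157 and 232 in NCD cold, 155, 142 and 118 in HFD RT and 62.1, 120.1 and 84.3 in HFD cold. All HFD libraries lay below all NCD libraries. With HFD in the cold it was 2.16-fold lower (log2 -1.11, SE 0.22, adjusted p = 0.0171), a call lost without HFD cold replicate 1 or 3 or NCD cold replicate 1 or 3 (log2 -1.14 to -0.88). At RT the same comparison gave log2 -0.73 and an adjusted p of 0.11. Gstz1 overlaps Pomt2 on the other strand, which was not called in any contrast.

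The microsomal transferases differed among themselves. Mgst1 was at 494, 433 and 409 CPM in NCD RT, 529.9, 448 and 564 in NCD cold, 362, 375 and 294 in HFD RT and 201, 355 and 329.5 in HFD cold, and was 1.74-fold lower with HFD in the cold (log2 -0.80, SE 0.20, adjusted p = 0.0409). That call was kept in 3 of 12 fits, those without NCD cold replicate 2, HFD RT replicate 3 or HFD cold replicate 2, with log2 fold changes of -0.96 to -0.56 over the 12. Mgst3 was at 49.3, 52.2 and 41.5 CPM in NCD RT, 25.2, 29.5 and 21.8 in NCD cold, 24.4, 22.4 and 42.7 in HFD RT and 9.54, 15.0 and 20.4 in HFD cold. It was 1.99-fold lower in cold on HFD (log2 -0.99, SE 0.29, adjusted p = 0.0465), a call kept only in the 2 fits without HFD RT replicate 2 or HFD cold replicate 3, with log2 fold changes of -1.27 to -0.64 over the 12. On NCD the log2 fold change of -0.90 had an adjusted p of 0.0807, and with the replicate number as a within-diet block it was called (adjusted p = 0.00715). Mgst3 was higher than in the other HFD RT libraries in replicate 3, where the muscle markers summed to 18870 CPM. With a muscle score as a term its difference was -0.69 in cold on HFD (log2, adjusted p = 0.0292). In cold on NCD it was -0.70 with that term and was called (adjusted p = 0.029). The part of muscle in the difference was not tested.

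Gstk1, a transferase of mitochondria and peroxisomes, and Gstt1, of the theta class, were called lower in cold on HFD near the threshold. Gstk1 was at 43.3, 37.3 and 36.2 CPM in NCD RT, 36.0, 35.8 and 43.7 in NCD cold, 37.0, 41.9 and 36.5 in HFD RT and 22.3, 33.6 and 22.3 in HFD cold (log2 -0.56, SE 0.16, adjusted p = 0.0486). Gstt1 was at 12.6, 11.8 and 10.7 CPM in NCD RT, 6.08, 6.71 and 8.95 in NCD cold, 12.8, 17.2 and 11.7 in HFD RT and 5.22, 9.29 and 9.23 in HFD cold (log2 -0.81, SE 0.24, adjusted p = 0.0495). The cold and RT libraries of Gstt1 did not overlap on either diet, and those of Gstk1 did not overlap on HFD. Leaving out a library kept the call of Gstk1 only without HFD cold replicate 2 (log2 -0.79) and that of Gstt1 in 0 of 12 fits, with adjusted p-values of 0.0511 to 0.161. The call of Gstt1 was also lost with the muscle score as a term (adjusted p = 0.0595), and that of Gstk1 with the replicate number as a block over all groups (adjusted p = 0.0515) but not within diet. The pi class gene Gstp1, 57.8% of whose 31-base words occur elsewhere, mainly in Gstp2, had log2 fold changes of -0.46 to -0.12 and was not called, and neither was Gsto1, at -0.17 to 0.25.

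**Figure D4:**
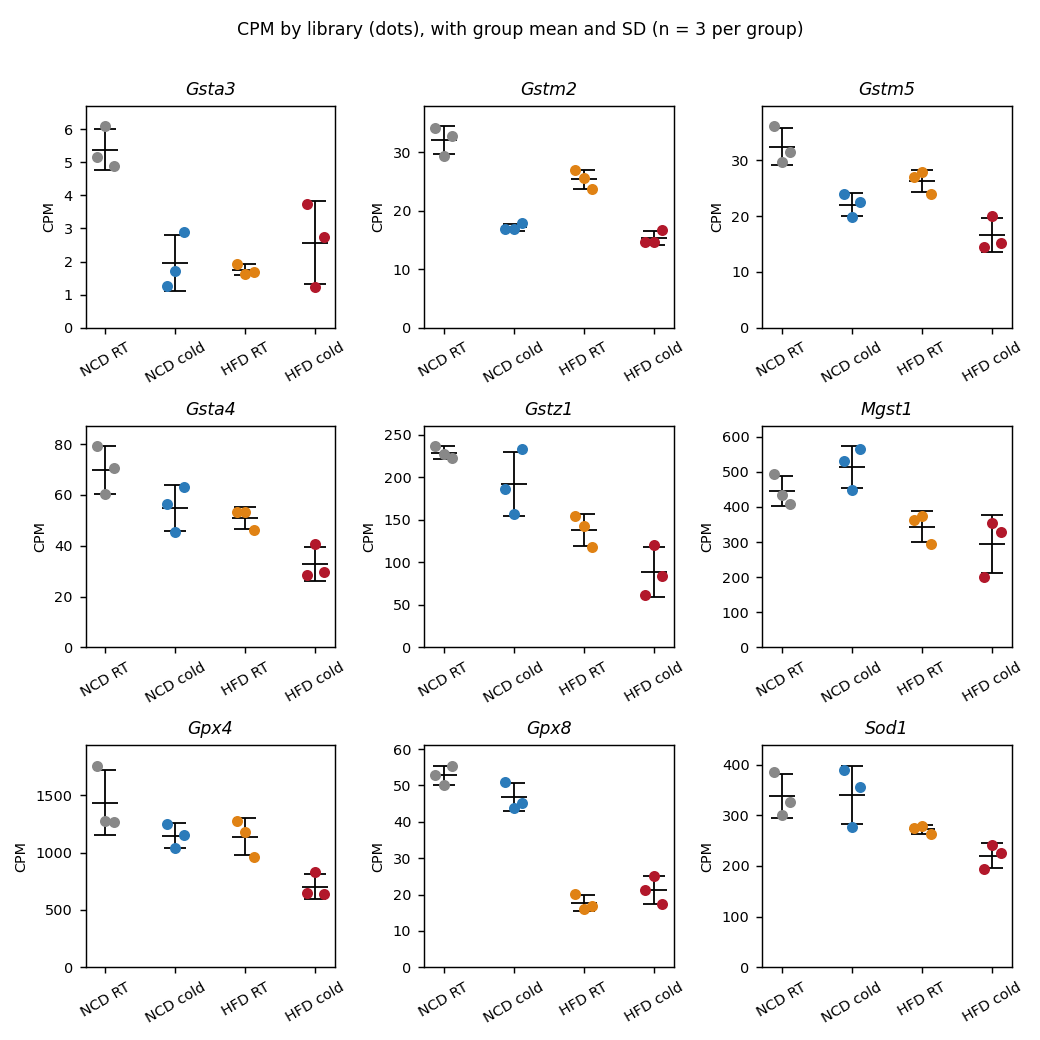
CPM in each library (dots) with the group mean and SD (n = 3) of 9 antioxidant genes in the 4 groups; each vertical axis starts at 0. The cold groups of Gstm2 lay below both RT groups, HFD cold was below the other groups for Gsta4, Gpx4 and Sod1, and Gpx8 was at 16.1 to 25.1 CPM in the HFD groups and at 43.9 to 55.4 CPM in the NCD groups.

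Among the 5 glutathione peroxidases, Gpx8 was lower with HFD at both temperatures and Gpx4 lower in HFD cold than in HFD RT and NCD cold, while Gpx1, Gpx3 and Gpx7 were not called. Gpx8 codes for a peroxidase of the endoplasmic reticulum membrane. It was at 52.9, 50.0 and 55.4 CPM in NCD RT, 51.1, 43.9 and 45.2 in NCD cold, 20.1, 16.1 and 16.8 in HFD RT and 21.2, 25.1 and 17.5 in HFD cold. Every HFD library lay below every NCD library. It was 2.99-fold lower with HFD at RT (log2 -1.58, SE 0.14, adjusted p = 0.000597) and 2.20-fold lower with HFD in the cold (log2 -1.14, SE 0.14, adjusted p = 0.00198), and both calls were kept in 12 of 12 fits that left out a library. The summed level of 8 fibroblast markers was 1449 to 2233 CPM in NCD RT, 657.4 to 771.5 in NCD cold, 748.4 to 1111 in HFD RT and 491.8 to 990.5 in HFD cold. Of these markers 7 of 8 had negative log2 fold changes with HFD at RT (median -0.65) and 4 of 8 with HFD in the cold, with 0 called by edgeR in either, where 4 and 1 had an unadjusted p under 0.05, and their part in the difference was not tested. Gpx8 overlaps Cdc20b on the other strand, which had 0 counts in all libraries.

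Gpx4 was at 1759, 1278 and 1268 CPM in NCD RT, 1253, 1038 and 1155 in NCD cold, 1276, 1175 and 966 in HFD RT and 644, 831 and 636 in HFD cold. The 3 HFD cold libraries were the lowest of the 12. It was 1.62-fold lower in cold on HFD (log2 -0.70, SE 0.17, adjusted p = 0.0244) and 1.63-fold lower with HFD in the cold (log2 -0.71, SE 0.17, adjusted p = 0.0397). The first call was lost without HFD RT replicate 1 or 2 or HFD cold replicate 1 or 3 (log2 -0.67 to -0.57). The second was lost in 6 of 12 fits (log2 -0.71 to -0.62), those without HFD RT replicate 2, NCD RT replicate 2, NCD cold replicate 1 or 3 or HFD cold replicate 1 or 3. Of its 31-base words 55.5% also occur in other genes, mainly the pseudogene Gpx4-ps2, so its reads could be split in counting. Gpx3, the plasma peroxidase, was not called, although in cold on HFD it passed with a batch term (log2 -0.68, adjusted p = 0.0331), with the replicate number as a within-diet block (log2 -0.70, adjusted p = 0.0272) and without HFD cold replicate 2 (log2 -0.98, adjusted p = 0.0413).

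Of the 7 peroxiredoxins and sulfiredoxin, Prdx6 and Srxn1 were called, and Prdx1 to Prdx5 were not. Prdx6 reduces phospholipid hydroperoxides with glutathione as donor. Its level was 172, 151 and 168 CPM in NCD RT, 247, 337 and 354 in NCD cold, 200.2, 226 and 202 in HFD RT and 524, 389.6 and 582 in HFD cold. The groups stood in the order NCD RT, HFD RT, NCD cold and HFD cold with no overlap between neighbours. Prdx6 was 1.91-fold higher in cold on NCD (log2 0.94, SE 0.17, adjusted p = 0.00819) and 2.38-fold higher in cold on HFD (log2 1.25, SE 0.17, adjusted p = 0.00139), both called in 12 of 12 fits that left out a library. With HFD in the cold it was 1.59-fold higher (log2 0.67, SE 0.17, adjusted p = 0.0414), which was kept only without HFD cold replicate 2, with log2 fold changes of 0.52 to 0.82. At RT the difference between the diets was 0.36 (log2, adjusted p = 0.283).

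Srxn1, sulfiredoxin, repairs peroxiredoxins whose active cysteine has been overoxidised. It was at 88.1, 72.7 and 79.7 CPM in NCD RT, 101, 106 and 121 in NCD cold, 65.9, 68.1 and 57.6 in HFD RT and 222.5, 127 and 214 in HFD cold. The HFD cold libraries were above all others and the HFD RT libraries below all others. Srxn1 was 2.94-fold higher in cold on HFD (log2 1.56, SE 0.19, adjusted p = 0.000972), called in 12 of 12 fits that left out a library with 1.45 to 1.77. In cold on NCD the libraries did not overlap either, but the log2 fold change of 0.45 (SE 0.18) was not called (adjusted p = 0.177). With HFD in the cold it was 1.72-fold higher (log2 0.78, SE 0.18, adjusted p = 0.0371), kept only without HFD RT replicate 3 or HFD cold replicate 2 (log2 0.67 to 0.99 over the 12). The other peroxiredoxins had log2 fold changes between -0.46 and 0.52 over the 4 contrasts, with the lowest for Prdx2 with HFD in the cold and the highest for Prdx4 in cold on HFD.

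In the thioredoxin system the cytosolic and mitochondrial reductases went apart. Txnrd1, the cytosolic selenoenzyme that reduces thioredoxin, was at 102, 109 and 116 CPM in NCD RT, 159.6, 157 and 195 in NCD cold, 89.7, 127 and 102 in HFD RT and 202, 172 and 221 in HFD cold. All 6 cold libraries lay above all 6 RT libraries. Txnrd1 was 1.56-fold higher in cold on NCD (log2 0.65, SE 0.15, adjusted p = 0.0229) and 1.87-fold higher in cold on HFD (log2 0.90, SE 0.15, adjusted p = 0.00382). The call on HFD was kept in 12 of 12 fits, and that on NCD was lost without NCD RT replicate 1, 2 or 3 or NCD cold replicate 3 (log2 0.55 to 0.70). The diets did not differ by the test, with log2 -0.04 at RT and 0.22 in the cold (adjusted p = 0.929 and 0.416).

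Txnrd2, its mitochondrial counterpart, was at 73.5, 70.5 and 74.7 CPM in NCD RT, 63.9, 51.3 and 86.7 in NCD cold, 87.3, 76.4 and 75.9 in HFD RT and 41.6, 60.8 and 47.6 in HFD cold. It was 1.60-fold lower in cold on HFD (log2 -0.68, SE 0.18, adjusted p = 0.0357), without overlap, and that call was kept only without NCD cold replicate 2 or 3 or HFD cold replicate 2, with log2 fold changes of -0.84 to -0.53. Txn1, the cytosolic thioredoxin, was at 107, 90.7 and 77.4 CPM in NCD RT, 75.4, 67.9 and 69.7 in NCD cold, 62.6, 64.3 and 44.3 in HFD RT and 51.5, 53.3 and 49.0 in HFD cold. All HFD libraries lay below all NCD libraries. It was 1.61-fold lower with HFD at RT (log2 -0.68, SE 0.15, adjusted p = 0.0431), a call kept only without NCD RT replicate 3 or NCD cold replicate 1 or 3 (log2 -0.83 to -0.53 over the 12), and in the cold the difference was -0.47 (adjusted p = 0.092). The mitochondrial Txn2 and Txnip, an inhibitor of thioredoxin, were not called. Txnip varied strongly within groups, between 614.7 and 1085 CPM in NCD RT and between 514.4 and 1060 CPM in HFD cold.

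Of the superoxide dismutases and catalase, Sod1 alone was called, in HFD in the cold. It was at 386, 300.3 and 327 CPM in NCD RT, 389, 277 and 356 in NCD cold, 275, 279 and 263 in HFD RT and 194, 242 and 226 in HFD cold. HFD libraries lay below NCD libraries at RT and in the cold, with a log2 fold change of -0.31 at RT (adjusted p = 0.283) and a level 1.54-fold lower in the cold (log2 -0.63, SE 0.14, adjusted p = 0.033). The call was kept in 7 of 12 fits and lost without HFD RT replicate 2, NCD cold replicate 1 or 3 or HFD cold replicate 1 or 3 (log2 -0.64 to -0.51). Its transcript shares 35.4% of its 31-base words with pseudogenes. Sod2, the mitochondrial dismutase, was at 822.5 ± 88.0 CPM in NCD RT and 1204 ± 19.2 in NCD cold (mean ± SD, n = 3), a log2 difference of 0.55 with an adjusted p of 0.0702. With the replicate number as a within-diet block it was called (log2 0.56, adjusted p = 0.0363). Cat was at 861, 804 and 758 CPM in NCD RT, 1063, 1031 and 1088 in NCD cold, 1080, 1095 and 866 in HFD RT and 1180, 1268 and 1207 in HFD cold. The groups of all 4 contrasts did not overlap for Cat, with log2 fold changes of 0.39, 0.27, 0.33 and 0.20, all under the minimum, and adjusted p-values of 0.0584, 0.155, 0.156 and 0.328. Its 4-group test passed (adjusted p = 0.0164).

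Of the NRF2 pathway genes, Hmox1 was called and Nfe2l2, Keap1 and Nqo1 were not. Hmox1 codes for the inducible haem oxygenase, which breaks haem down to biliverdin, iron and carbon monoxide. It was at 7.15, 6.05 and 8.11 CPM in NCD RT, 9.80, 19.4 and 9.47 in NCD cold, 7.34, 11.6 and 13.8 in HFD RT and 88.8, 35.8 and 41.3 in HFD cold. The 3 HFD cold libraries stood apart from the other 9. Hmox1 was 5.03-fold higher in cold on HFD (log2 2.33, SE 0.39, adjusted p = 0.00434) and 4.31-fold higher with HFD in the cold (log2 2.11, SE 0.39, adjusted p = 0.0129). The former was called in 12 of 12 fits that left out a library, with 1.85 without HFD cold replicate 1 and 2.57 at most, and the latter was lost without NCD cold replicate 1 or 3 (log2 1.93 and 1.91). On NCD the cold and RT libraries did not overlap, but the log2 fold change of 0.85 (SE 0.39) had an adjusted p of 0.228. The effect of cold differed between the diets by 1.49 (log2, SE 0.54, unadjusted p = 0.0181, adjusted p = 0.692).

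Macrophages, which take up haem, also express Hmox1, and the summed level of 10 macrophage markers was 158.3 to 196.3 CPM in NCD RT, 119.5 to 160.9 in NCD cold and 158.1 to 226 in HFD RT. In HFD cold it was 215.3, 154.8 and 345.2 CPM in replicates 1, 2 and 3. Of the 10 markers, 8 had positive log2 fold changes in cold on HFD (median 0.45) and 1 was called (Cd68). With HFD in the cold all 10 were positive (median 0.75), 7 had an unadjusted p under 0.05 and 2 were called (Mrc1 and Itgam). HFD cold replicate 2 was the lowest of its group in both, with 154.8 CPM of these markers and 35.8 CPM of Hmox1. That level of Hmox1 was above the 9 libraries of the other groups. Without HFD cold replicate 3, which had the highest marker sum, the log2 fold change of Hmox1 in cold on HFD was 2.52 (adjusted p = 0.00817). Without replicate 1, which had the highest Hmox1, it was 1.85. The part of macrophages in the difference was not tested.

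**Figure D5:**
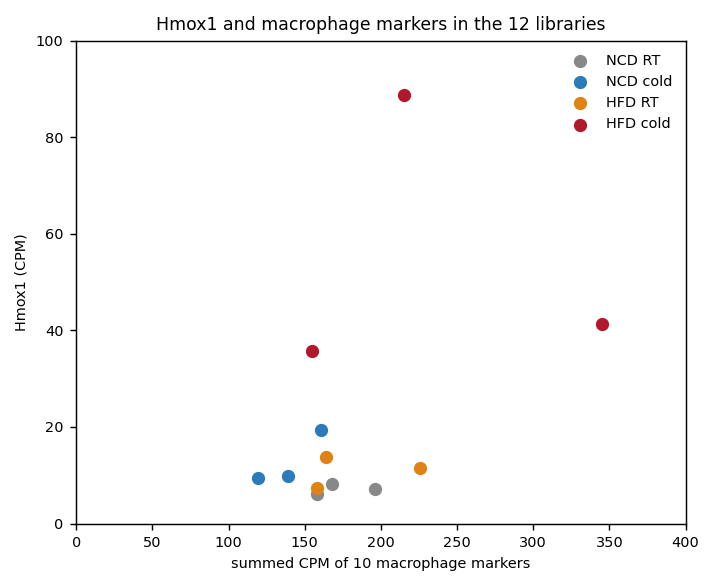
Hmox1 in CPM (vertical axis) against the summed CPM of 10 macrophage markers (horizontal axis) in the 12 libraries, coloured by group. The 3 HFD cold libraries lie highest at marker sums of 154.8, 215.3 and 345.2 CPM, and the other 9 libraries stay at or below 19.4 CPM of Hmox1.

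Nfe2l2, the gene of NRF2 itself, was at 62.1, 84.2 and 83.2 CPM in NCD RT, 69.1, 88.0 and 94.4 in NCD cold, 73.8, 78.1 and 58.5 in HFD RT and 71.4, 85.4 and 83.1 in HFD cold. All groups overlapped, and log2 fold changes were -0.13 to 0.19. Keap1 was at 62.7, 54.9 and 60.9 CPM in NCD RT, 63.3, 56.0 and 68.9 in NCD cold, 49.1, 51.5 and 47.1 in HFD RT and 44.7, 50.5 and 55.0 in HFD cold. It was lower with HFD without overlap at either temperature, by log2 -0.27 and -0.33, but neither passed (adjusted p = 0.22 and 0.105). Differences of this size depend on the scaling, whose factors were higher in the HFD libraries. Nqo1 stood at 0.836 to 4.63 CPM over the 12 libraries, and its log2 fold changes of 0.16 to 0.62 had standard errors of 0.57 to 0.59.

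Of the metallothioneins, Mt1 was called higher in the cold on both diets and Mt2 in no contrast. Mt1 was at 59.5, 70.6 and 62.8 CPM in NCD RT, 120.3, 254 and 102 in NCD cold, 37.8, 80.9 and 48.9 in HFD RT and 149.7, 131 and 133 in HFD cold. All 6 cold libraries lay above all 6 RT libraries. It was 2.47-fold higher in cold on NCD (log2 1.30, SE 0.33, adjusted p = 0.0376) and 2.46-fold higher in cold on HFD (log2 1.30, SE 0.33, adjusted p = 0.0288). Without NCD cold replicate 2, its highest library, the log2 fold change on NCD was 0.79 (adjusted p = 0.119). The call on NCD was also lost without any of the 3 NCD RT or the 3 HFD cold libraries (log2 1.26 to 1.37), and that on HFD without HFD RT replicate 1 or 3 or HFD cold replicate 1 or 3 (log2 1.12 to 1.33). The diets did not differ by the test (log2 -0.20 at RT and -0.20 in the cold, adjusted p = 0.806 and 0.78).

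Mt2 had a wider spread. It was at 10.9, 11.8 and 8.67 CPM in NCD RT, 41.7, 105 and 10.7 in NCD cold, 5.28, 16.4 and 7.20 in HFD RT and 48.3, 35.6 and 19.8 in HFD cold. The NCD groups overlapped through NCD cold replicate 3, and the HFD groups did not overlap. The fitted differences were larger than those of Mt1, with log2 2.33 (SE 0.68, adjusted p = 0.0631) on NCD and 1.84 (SE 0.68, adjusted p = 0.102) on HFD, and neither was called. Without NCD cold replicate 3 the first was called (log2 2.83, adjusted p = 0.015), and with the replicate number as a within-diet block so was the second (log2 1.85, adjusted p = 0.0449). An antisense gene, Gm45774, overlaps Mt2 and holds 58.1% of its 31-base words, and whether strand was used in counting is not given in the sources used here.

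The promoters of Mt1 and Mt2, which lie side by side on chromosome 8, are shown because metallothionein genes are known to be induced by zinc through the metal response element. RefSeq promoter windows on GRCm38.p6, from 250 bases before to 50 after each start, were matched by symbol for 41 of the 48 genes, with 50 windows. The core of the element was searched as TGCACNC or TGCGCNC on both strands, and 25.7% of all 32817 windows held at least 1 match, 1.97% at least 3 and 0.518% at least 4. The window of Mt1 held 3 matches and that of Mt2 held 4, and over the antioxidant genes 17 of 50 windows (34.0%) held at least 1. Counted from the start base, the matches began at -23, 2 and 20 in Mt1 and at -223, -128, -50 and 4 in Mt2. Not all of them therefore lay before the start. Both stretches are on the plus strand, at chr8:94178839-94179118 for Mt1 and chr8:94172368-94172647 for Mt2, with the matches in capitals.
Mt1: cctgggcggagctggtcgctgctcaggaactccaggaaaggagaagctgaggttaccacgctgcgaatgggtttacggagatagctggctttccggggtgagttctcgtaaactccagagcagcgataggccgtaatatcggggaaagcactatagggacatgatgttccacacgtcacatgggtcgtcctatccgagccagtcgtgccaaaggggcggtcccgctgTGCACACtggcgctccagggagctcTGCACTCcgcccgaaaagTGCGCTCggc
Mt2: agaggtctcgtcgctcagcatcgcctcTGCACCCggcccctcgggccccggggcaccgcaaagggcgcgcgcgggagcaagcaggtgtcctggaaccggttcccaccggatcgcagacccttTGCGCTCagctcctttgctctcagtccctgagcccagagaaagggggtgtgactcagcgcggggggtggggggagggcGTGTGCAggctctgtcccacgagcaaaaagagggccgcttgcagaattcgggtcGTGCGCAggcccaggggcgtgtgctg

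The core of the antioxidant response element, to which NRF2 binds with small MAF proteins, was searched as TGACNNNGC on both strands. It was found in 12.4% of all windows and in 10 of the 50 windows of antioxidant genes (20.0%), those of Gclm, Gsta3, Gstm5, Mgst1, Mt2, Nfe2l2, Prdx1, Sod1, Srxn1 and Txnrd1. The list holds genes called higher in the cold on HFD (Gclm, Srxn1 and Txnrd1), genes called lower in the cold on some diet (Gsta3 and Gstm5) and genes not called in the cold. Of the genes called in the same direction in both cold or both HFD contrasts, Txnrd1 and Gstm5 held a match and moved in opposite directions, and their stretches are given for that reason, on the plus strand at chr10:82858956-82859235 and chr3:107895604-107895883 with the match in capitals. The windows of Gss, Gstm2 and Gpx8 held neither motif. A match describes the letters of the window and is not a measured binding site.
Txnrd1: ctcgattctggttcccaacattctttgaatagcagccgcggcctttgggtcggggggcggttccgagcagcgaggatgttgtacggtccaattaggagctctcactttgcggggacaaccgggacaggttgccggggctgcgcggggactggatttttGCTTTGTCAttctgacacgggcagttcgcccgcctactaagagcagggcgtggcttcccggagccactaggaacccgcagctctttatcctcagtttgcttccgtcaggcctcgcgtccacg
Gstm5: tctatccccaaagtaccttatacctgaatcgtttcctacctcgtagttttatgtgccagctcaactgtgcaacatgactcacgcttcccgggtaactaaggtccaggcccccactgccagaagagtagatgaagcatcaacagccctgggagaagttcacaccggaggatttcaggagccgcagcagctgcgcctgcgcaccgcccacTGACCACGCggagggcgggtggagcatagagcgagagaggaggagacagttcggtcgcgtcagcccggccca

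The combination of diet and cold was tested as an interaction over all genes. It passed for 0 of the 46 genes and for 0% of all genes in edgeR's test, while 6 of the 46 had an unadjusted p under 0.05, namely Gsta3, Gstk1, Gpx8, Gclm, Srxn1 and Hmox1, against 6.52% of all genes, and DESeq2 passed 1 (Srxn1, log2 1.13, adjusted p = 0.0129). The smallest adjusted p in edgeR's test was 0.475, for Srxn1 (log2 1.11, SE 0.26). Calls in the cold on HFD and not on NCD, such as that of Hmox1, are therefore not shown to differ between the diets by the main test. For the 23 genes called in no contrast, log2 fold changes were -0.66 to 2.33 in cold on NCD, -1.21 to 1.84 in cold on HFD, -0.67 to 0.64 in HFD at RT and -0.96 to 0.53 in HFD in the cold, both upper ends in the cold being Mt2.

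Other genes of the same pathways were counted from 104 listed genes, of which 94 were tested. In cold on NCD 4 were called higher and 2 lower, which is 6.38% against 6.27% of all genes. In cold on HFD 10 were higher and 9 lower (20.2% against 9.58%), with HFD at RT 2 and 2 (4.26% against 2.09%), and with HFD in the cold 4 and 7 (11.7% against 4.75%). Of the genes of NADPH supply, 11 were tested, and 0 were called in cold on NCD, where 1 had an unadjusted p under 0.05. In cold on HFD 5 were called lower and 1 higher, where 4.19% of all genes were called lower, and with HFD in the cold 5 lower and 1 higher, against 2.69% lower. Tkt, the transketolase of the pentose phosphate pathway, was at 6002 to 8010 CPM in NCD RT, 3582 to 5790 in NCD cold, 2874 to 4396 in HFD RT and 725.8 to 1357 in HFD cold. It was 3.21-fold lower in cold on HFD (log2 -1.68, SE 0.27, adjusted p = 0.00341) and 4.60-fold lower with HFD in the cold (log2 -2.20, SE 0.27, adjusted p = 0.00198). Me1, malic enzyme, was lower with HFD at RT (log2 -1.48, SE 0.19, adjusted p = 0.00342) and in the cold (log2 -2.10, SE 0.19, adjusted p = 0.000428), and so was G6pdx, which makes NADPH at the entry of the pentose phosphate pathway (log2 -0.86 and -0.74, adjusted p = 0.0379 and 0.0411). The transaldolase gene Taldo1 was lower in cold on HFD (log2 -0.99, adjusted p = 0.00892) and with HFD in the cold (log2 -1.49, adjusted p = 0.00245), and Idh2, the mitochondrial isocitrate dehydrogenase, was higher with HFD at RT (log2 1.06, adjusted p = 0.0014). Mthfd2, an enzyme of mitochondrial folate metabolism, went the other way, with 2.19 to 3.45 CPM in HFD RT and 11.8 to 63.7 in HFD cold (log2 3.74, SE 0.54, adjusted p = 0.00198), and it was also higher with HFD in the cold (log2 2.27, SE 0.50, adjusted p = 0.0285).

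Of 32 other glutathione and thioredoxin genes tested, 3 were called in cold on NCD (9.38%) and 4 in cold on HFD (12.5%). Of 26 other NRF2 and haem genes, 3 (11.5%) and 5 (19.2%) were called. The shares of all genes were 6.27% and 9.58%. Those of the NRF2 and haem genes lay further above them than those of the glutathione and thioredoxin genes, with each count being 3 to 5 genes. Slc3a2, Oplah, Hmox2 and Blvrb were called in the same direction on both diets. Slc3a2, the heavy chain of the cystine transporter and other amino acid transporters, was higher on NCD (log2 1.88, SE 0.26, adjusted p = 0.00207) and on HFD (log2 1.48, SE 0.26, adjusted p = 0.00498). Oplah, the oxoprolinase of the glutathione cycle, was higher by log2 0.70 and 0.53 (adjusted p = 0.00868 and 0.0213). Hmox2, the constitutive haem oxygenase, was higher by 0.77 and 0.93 (adjusted p = 0.00514 and 0.00139), with 46.0% of its 31-base words in other genes, and Blvrb, a biliverdin reductase, was lower by -0.76 and -0.67 (adjusted p = 0.0148 and 0.019). The carbonyl reductase gene Cbr3 was at 0.942 to 3.41 CPM in the other 9 libraries and at 6.34 to 14.4 in HFD cold (log2 1.89 in cold on HFD and 2.56 with HFD in the cold, adjusted p = 0.0129 and 0.00732). Blvra, the other biliverdin reductase, was lower in cold on NCD (log2 -0.82, SE 0.15, adjusted p = 0.0101), and Ltc4s, which joins glutathione to a leukotriene, in cold on HFD (log2 -1.26, SE 0.24, adjusted p = 0.00836). Sesn2, a stress-induced sestrin, was at 18.4, 22.4 and 20.0 CPM in NCD cold and 58.2, 29.3 and 34.1 in HFD cold (log2 1.00, SE 0.26, adjusted p = 0.049). Slc40a1, the iron exporter, was higher with HFD at RT (log2 1.71, SE 0.33, adjusted p = 0.022).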

How the data were processed

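Total RNA of the 12 iBAT libraries had been depleted of ribosomal RNA and sequenced as read pairs. Per the study's methods, the authors trimmed reads with cutadapt and quantified them with salmon against GENCODE and RNAcentral transcripts (GRCm38), and the estimated counts they deposited for each gene are whole numbers and were not normalized. Whether strand was used is not given in the sources used here.

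Genes were tested with edgeR 4.0.16 (R 4.3.3, limma 3.58.1) after filterByExpr with a minimum count of 10 and TMM scaling, in a quasi-likelihood fit with a mean for each of the 4 groups and no batch term, and p-values were adjusted by Benjamini-Hochberg over 16737 genes. The standard error is the absolute log2 fold change divided by the square root of F. DESeq2 1.42.0, other scaling and filters, batch, replicate and muscle terms, and fits without each library were alternatives. The scripts were tested on simulated data. The antioxidant genes, related genes and markers were chosen with earlier results of these data known. By the rule for named genes, antioxidant genes called in at least 1 contrast were given with their CPM in the 12 libraries, Mt1, Mt2, Nfe2l2, Keap1, Gpx4, Sod1, Cat and Txn1 whatever their result, the others by family, and related genes where called in both contrasts of a kind or among the 3 largest rises or falls of a contrast.

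Same-numbered libraries deviated together in both cold contrasts (r of 0.219 to 0.456 on NCD and 0.155 to 0.386 on HFD over the 3 pairs). This is the only ground for pairing them. Differently numbered libraries had an r of -0.289 to 0.044 on NCD and -0.268 to 0.134 on HFD. On HFD the upper end was thus near the lowest same-numbered value. In the HFD contrasts same-numbered libraries did not deviate together in every pair (r from -0.18 and -0.211 upward). The highest r was that of replicate 2 on NCD and of replicate 3 on HFD, the libraries with high muscle markers. HFD RT replicate 3 and NCD RT replicate 2, also high in them but numbered differently, had an r of 0.374. Replicate 3 was batch 2 in every group, so number and batch cannot be told apart in its pairs. The part of muscle or batch in these correlations was not tested. Promoters were RefSeq windows (GRCm38.p6), and positions and 31-base words came from GENCODE on GRCm38. Counts of 0 and intervals cover counting error only.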

Additional observations from a re-analysis of the deposited data

Results flagged for a closer look

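Srxn1 stood out because the HFD effect pointed in opposite directions at the 2 temperatures without overlap between the libraries. At RT every HFD library was below every NCD library (log2 -0.328, adjusted p = 0.377 by edgeR), and in the cold every HFD library was above every NCD library (log2 0.781, adjusted p = 0.0371). The difference between these effects was 1.11 on the log2 scale (SE 0.26, unadjusted p = 0.00126), with an adjusted p of 0.475 by edgeR and 0.0129 by DESeq2 over all genes. Without HFD cold replicate 2, the lowest HFD cold library of Srxn1, the adjusted p by edgeR was 0.0228. Each of the other fits that left out 1 library passed 0 antioxidant genes in the interaction.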

How the results depend on the processing

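Of the 860 alternative values for called antioxidant genes, 632 kept the call, 228 kept their direction and lost the call, and 0 reversed. The 632 include the main fit read without the minimum fold, which keeps every call by construction. They also include fits without a library of a group outside the contrast, which leave the libraries compared unchanged. The 632 and the 0 are therefore not counts of independent checks. Counts of called antioxidant genes, in the order cold on NCD and on HFD, then HFD at RT and in the cold, were 7, 17, 4 and 10, and with batch 1 alone they were 1, 4, 1 and 0, with 12 in the 4-group test. DESeq2 called 11 in cold on NCD, 7 with HFD at RT and 1 in the interaction. With only the 6 libraries of the groups compared, 7 were called in cold on HFD and 2 with HFD in the cold. Leaving out 1 library gave 3 to 8, 6 to 17, 2 to 5 and 2 to 12 calls, 18 to 26 in the 4-group test and 0 to 1 in the interaction. The lowest counts came without NCD RT replicate 1, 2 or 3 (3), HFD cold replicate 1 (6), NCD RT replicate 2 (2) and NCD cold replicate 1 or 3 (2). Related genes, called 6, 19, 4 and 11 times, were called 1, 3, 2 and 2 times with batch 1 alone, 10 times by DESeq2 with HFD at RT, and 4 to 6, 15 to 22, 2 to 5 and 5 to 15 times without 1 library. With the replicate number as a block the antioxidant counts were 8, 17, 4 and 9, with 26 in the 4-group test and 0 in the interaction. That fit added Sod2 on NCD and Gpx3 and Mt2 in cold on HFD, and lost Gsta4 and Gstk1 in cold on HFD and Mgst1 with HFD in the cold (adjusted p = 0.0504, 0.0515 and 0.0551). As a block within diet they were 9 and 19 in the cold contrasts, which added Mgst3 and Sod2 on NCD and Gpx3 and Mt2 on HFD and lost none. DESeq2 size factors moved the median log2 fold change of all genes by -0.021 to 0. With fewer libraries the fits have fewer degrees of freedom, and the cause of the other changes was not tested. Depth of 15136861 counts in the shallowest library limits genes such as Nqo1, Gsta3 and Gsta1.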
